A study of Mus musculus with 2 samples.

Results

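Leukocyte lineage marker genes are genes whose RNA is made mainly by white blood cells, so that their level in a whole organ follows how many such cells it holds and how much RNA each of them makes. 36 marker genes were chosen by symbol, with earlier results of these data known, as members of 6 groups: pan-leukocyte, monocyte-macrophage, T cell, cytotoxic, B cell and mast cell markers. 33 of them had a row among the 14678 genes of the table, and Cd52, Ms4a1 and Spi1 had none under these symbols. The samples were whole mouse uteri at gestation day 2.5 (G2.5), before implantation. Digital gene expression (DGE) profiling counts sequence tags, and the copy number of a gene is the number of tags assigned to it.

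All animals carried the double transgenic genotype VEGFtetO/tetO/beta-AKtg/wt, with tetO operator sites in the promoter of VEGF and a tetR-Krab repressor driven by a beta-actin promoter in all tissues. Dox+ mice ate chow with doxycycline, which keeps the repressor off VEGF, and are labelled VEGF-normal (wild type). Dox- mice ate chow without doxycycline and are labelled VEGF-repression. The libraries thus differ in doxycycline itself as well as in VEGF, and effects of the drug and of VEGF cannot be told apart. The repressor acts in every cell type, so repression was not limited to the uterus. For each condition RNA of 3 uteri was pooled into 1 library, so no difference given here has a replicate check, and every test compares these libraries and not the conditions. In bulk RNA, fewer cells of a type and less RNA per cell cannot be told apart.

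Clean tags, to which the levels (TPM) are scaled as tags per 1000000, numbered 5985925 in Dox+ and 5844314 in Dox-. Vegfa, the repressed gene, had 247 copies in Dox+ and 125 in Dox-, which is 1.93-fold lower in Dox- (95% interval 1.55 to 2.41). Every interval is a 95% one by the exact Clopper-Pearson method, and it covers counting error alone. 3 copies, taken as the floor, are 0.501 TPM in Dox+ and 0.513 TPM in Dox-.

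Macrophages, natural killer cells, mast cells and smaller numbers of lymphocytes reside in the uterus of rodents, and their numbers move with the ovarian hormones and with mating. Leukocytes share a machinery for signalling and movement that includes the CD45 phosphatase and small GTPase switches, and each lineage adds its own receptors and granule enzymes. The transcription factor PU.1 drives many myeloid genes through a box with the core GAGGAA, and GATA factors act in mast cells.

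The start regions of the genes on which the results turn are given first. Sequences are from RefSeq on build GRCm38.p6, 250 bases before to 50 bases after the annotated start, 5′ to 3′ on the strand of the gene. A window was found for 25 members, and some genes had more than 1. GAGGAA or its reverse complement TTCCTC stood in a window of 15 of these 25 genes (60%), against 30.8% of the 11570 genes of the table with a window. Counted by window, it stood in 17 of 30 (56.7%), against 28.3% of all 32851. Laptm5, Mrc1 and Cybb are shown, with the box in capitals, because they are the 3 of the 5 markers called higher whose window held it. Rac2 had no window and that of Lyz1 did not hold these letters. The box begins 38 bases before the start in Laptm5 (chr4:130913066-130913365, plus strand), 180, 167 and 35 bases before it in Mrc1 (chr2:14229164-14229463, plus strand) and 10 bases after it in Cybb (chrX:9469275-9469574, minus strand).
Laptm5: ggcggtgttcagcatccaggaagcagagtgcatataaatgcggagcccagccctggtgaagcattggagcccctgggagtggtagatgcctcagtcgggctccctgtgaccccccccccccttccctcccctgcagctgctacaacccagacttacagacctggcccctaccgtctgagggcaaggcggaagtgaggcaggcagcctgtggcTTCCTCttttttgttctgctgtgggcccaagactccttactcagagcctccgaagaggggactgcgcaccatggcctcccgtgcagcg
Mrc1: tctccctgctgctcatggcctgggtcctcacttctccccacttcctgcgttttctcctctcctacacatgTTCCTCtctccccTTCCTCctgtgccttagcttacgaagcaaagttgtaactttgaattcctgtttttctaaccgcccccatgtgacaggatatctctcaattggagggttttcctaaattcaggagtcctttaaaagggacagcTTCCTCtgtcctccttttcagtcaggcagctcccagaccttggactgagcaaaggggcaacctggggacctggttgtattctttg
Cybb: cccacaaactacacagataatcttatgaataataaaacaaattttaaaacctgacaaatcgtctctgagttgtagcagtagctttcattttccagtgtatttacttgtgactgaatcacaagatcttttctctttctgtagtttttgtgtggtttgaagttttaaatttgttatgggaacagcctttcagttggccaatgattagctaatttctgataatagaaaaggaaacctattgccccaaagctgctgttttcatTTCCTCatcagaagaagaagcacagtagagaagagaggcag

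A GATA box was taken as the letters AGATAA, with T also allowed at the first place and G at the last, on either strand. It stood in a window of 8 of the 25 markers (32%), against 22.6% of the genes of the table, and in 8 of 30 windows (26.7%), against 29.8% of all windows. Of the 6 mast cell and further mast cell genes with a window 5 held one, and Kit did not. The box did not go with one direction. Il1rl1 held 5 in 1 window and 1 in another, and its ratio was above 1, with 7 copies in Dox+ and 18 in Dox-. Cpa3 (chr3:20242132-20242431, minus strand), Cma1 (chr14:55944626-55944925, minus strand) and Mcpt4 (chr14:56062261-56062560, minus strand) are shown because these mast cell protease genes fell together, with the box in capitals. It begins 46, 79 and 103 bases before the start. A match of letters is a description and not a site at which a factor was measured.
Cpa3: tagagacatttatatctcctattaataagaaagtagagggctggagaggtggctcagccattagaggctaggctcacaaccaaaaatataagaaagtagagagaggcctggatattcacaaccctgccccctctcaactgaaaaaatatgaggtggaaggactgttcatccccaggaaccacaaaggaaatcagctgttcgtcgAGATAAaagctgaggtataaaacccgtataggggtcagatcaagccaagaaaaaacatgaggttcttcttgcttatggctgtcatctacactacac
Cma1: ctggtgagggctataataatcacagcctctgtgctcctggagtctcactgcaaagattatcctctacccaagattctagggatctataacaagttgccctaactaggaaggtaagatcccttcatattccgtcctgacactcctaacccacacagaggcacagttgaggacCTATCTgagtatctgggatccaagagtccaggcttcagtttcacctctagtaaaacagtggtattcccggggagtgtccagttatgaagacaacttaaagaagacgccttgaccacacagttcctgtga
Mcpt4: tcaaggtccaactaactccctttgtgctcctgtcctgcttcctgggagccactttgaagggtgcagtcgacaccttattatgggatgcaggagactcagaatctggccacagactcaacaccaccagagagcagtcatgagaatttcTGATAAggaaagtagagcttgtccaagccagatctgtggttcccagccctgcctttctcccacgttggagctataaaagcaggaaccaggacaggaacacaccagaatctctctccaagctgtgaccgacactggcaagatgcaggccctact

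The 33 markers together had 4444 copies in Dox+ and 5994 in Dox-, and their summed level was 742 TPM and 1026 TPM, a ratio of 1.38 (1.33 to 1.44). They took 0.10% of all counted copies in Dox+ and 0.14% in Dox-. 22 markers had a ratio above 1 and 9 a ratio below 1, and Cd8a and Prf1 were at or under 3 copies in both libraries. The median marker had 49 copies in Dox+, against 86 for all genes with a tag there, so most markers were weakly sampled.

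Genes whose copies in both libraries summed to 200 or more were called at a 1.5-fold difference and an FDR below 0.05 in the two-sided Audic-Claverie test over all genes. 14 markers reached this number, all of them at 100 copies or more in each library, and 5 of the 14 rose in Dox- while 0 fell. Of all 6547 genes at this number, 15.2% rose and 14.7% fell. The 5 were Laptm5, Rac2, Lyz1, Mrc1 and Cybb. The median log2 ratio of the 14 was 0.33, against 0.03 for all genes at this number. When genes with at least 20 combined copies were called by the same rule, 25 markers were included, of which 7 rose and 1 fell. Of all 12079 genes at this number, 15.9% rose and 15.6% fell. The median log2 ratio of the 25 was 0.45, against 0.03 for all genes at this number. Ptprc and Vav1 joined the markers that rose, and the one that fell was Cpa3. The plot of ratios gives each marker with its interval.

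**Figure D1:**
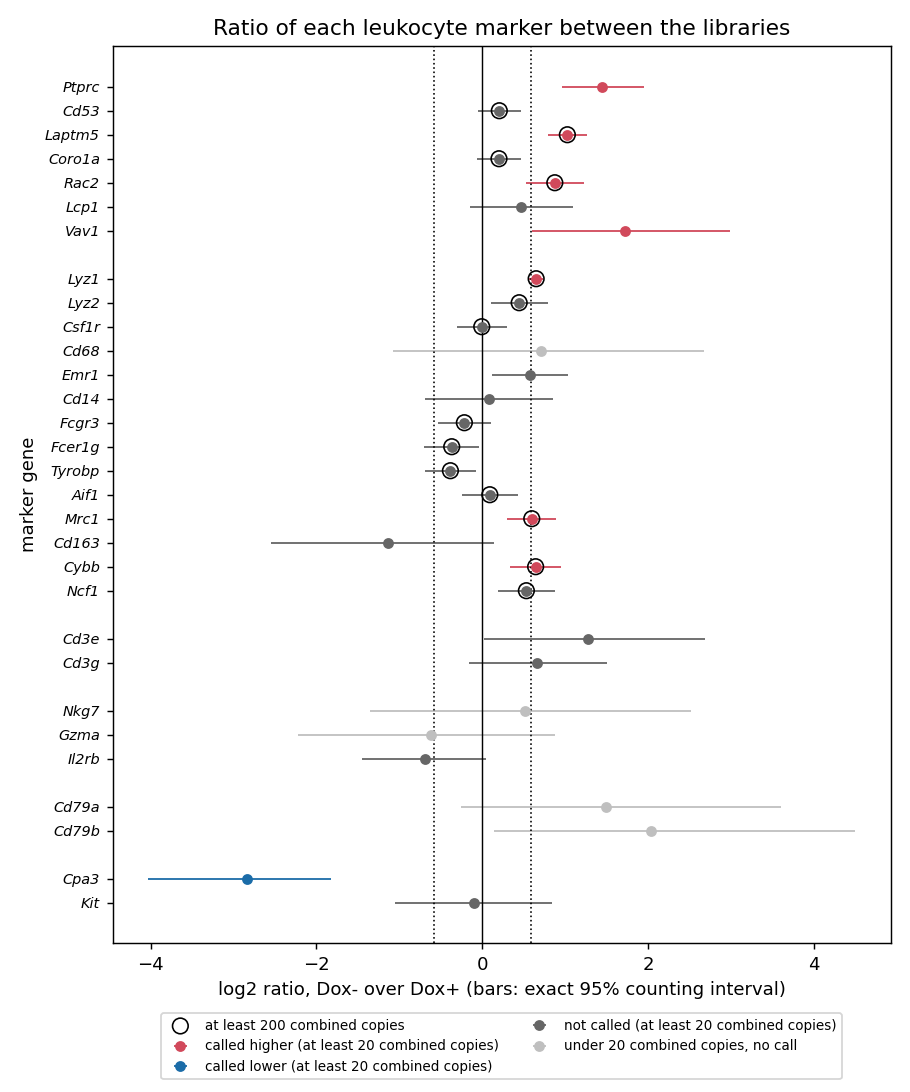
Log2 ratio of the level in Dox- over that in Dox+ (x axis) for each marker with a tag in Dox+ (y axis), grouped as pan-leukocyte, monocyte-macrophage, T cell, cytotoxic, B cell and mast cell from top to bottom; bars are exact 95% counting intervals and dotted lines mark 1.5-fold. Ringed points have at least 200 combined copies. The 7 pan-leukocyte points all lie right of 0, and Cpa3 lies far to the left at -2.84.

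Pan-leukocyte markers were higher in Dox- as a group. Their summed level was 151 TPM in Dox+ and 237 TPM in Dox-, a ratio of 1.57 (1.45 to 1.71), and all 7 had a ratio above 1. 4 of the 7 rose by the rule of at least 20 copies, and the others did not pass it.

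Ptprc encodes CD45, the membrane phosphatase that defines leukocytes (chr1:139959438-140071882, NCBIM37). It had 49 copies (8.19 TPM) in Dox+ and 130 copies (22.2 TPM) in Dox-, a ratio of 2.72 (1.94 to 3.86, FDR 3.99e-09). Vav1 encodes an exchange factor that activates small GTPases in blood cells. It had 9 copies in Dox+ and 29 in Dox-, a ratio of 3.30 (1.52 to 7.93, FDR 0.00436). These were the largest ratios of the group, and both rest on fewer than 200 combined copies.

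Laptm5, a lysosomal membrane protein of blood cells (chr4:130469040-130492056, NCBIM37), had 224 copies (37.4 TPM) and 446 copies (76.3 TPM), a ratio of 2.04 (1.73 to 2.41, FDR 8.24e-18). Rac2, a small GTPase of blood cells (chr15:78389599-78403213, NCBIM37), had 111 copies (18.5 TPM) and 199 copies (34.1 TPM), a ratio of 1.84 (1.45 to 2.34). Both stood above 1.5-fold. The other pan-leukocyte markers were not called. Coro1a, an actin-binding coronin, had 234 and 263 copies, a ratio of 1.15 (0.962 to 1.38, FDR 0.220). Lcp1, the actin bundler L-plastin, had 40 and 54 copies, a ratio of 1.38 (0.902 to 2.14). Cd53, a tetraspanin of leukocytes, had 236 and 266 copies, a ratio of 1.15 (0.965 to 1.38, FDR 0.207). The intervals of these 3 include 1, so no difference was detectable at this depth, and they exclude the 2.04-fold of Laptm5 in the case of Coro1a and Cd53.

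Among 18 further pan-leukocyte genes, 12 had a ratio above 1 and 6 below 1, and the summed copies were 896 and 1194, a ratio of 1.36 (1.25 to 1.49). Of the 16 with at least 20 copies, 6 rose and 0 fell. Arhgdib, an inhibitor that holds small GTPases in the cytosol, rose from 210 to 353 copies, a ratio of 1.72. Cd37, Cd48, Cytip, Fermt3 and Lcp2 also rose, by 1.76- to 2.56-fold. Ptpn6, the phosphatase SHP-1, had 79 and 76 copies, and Sla, an adaptor that dampens receptor signalling, had 60 and 74.

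**Figure D2:**
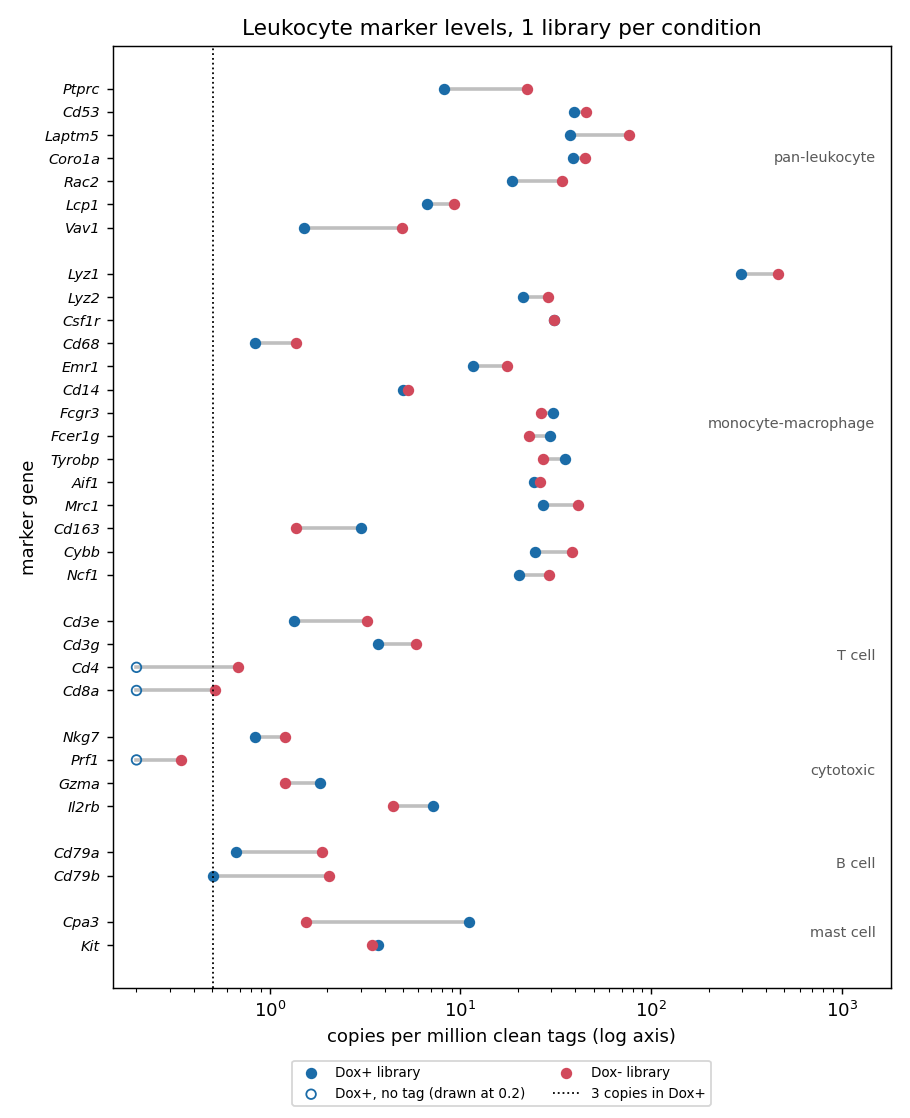
Level of each marker in Dox+ and Dox- in TPM (x axis, log scale), with a line joining the libraries and genes (y axis) grouped as in the plot of ratios; open circles at the left edge stand for no tag, and the dotted line marks 3 copies in Dox+. Lyz1 lies far to the right, at 296 TPM and 465 TPM, and T cell, cytotoxic and B cell markers lie at the left.

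Monocyte-macrophage markers did not move as one. Their summed level was 561 TPM in Dox+ and 762 TPM in Dox-, a ratio of 1.36 (1.30 to 1.42). Lyz1 alone supplied 52.8% of these copies in Dox+ and 61.0% in Dox-, and without Lyz1 and Lyz2 the ratio was 1.10 (1.02 to 1.18). 9 of the 14 markers had a ratio above 1 and 5 below 1. Of the 13 with at least 20 copies, 3 rose and 0 fell.

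Lyz1 and Lyz2 encode lysozymes, enzymes that cut bacterial cell walls. Lyz1 (chr10:116724852-116729924, NCBIM37) had 1772 copies in Dox+ and 2718 in Dox-, a ratio of 1.57 (1.48 to 1.67). Lyz2, the lysozyme usually used to mark macrophages, had 127 and 169 copies, a ratio of 1.36 (1.08 to 1.73, FDR 0.0254), under 1.5-fold. The transcripts share 601 stretches of 21 bases, 48.3% of those in Lyz1, so how tags were split between these neighbouring genes, and which of them stood higher, is uncertain.

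The NADPH oxidase of phagocytes makes superoxide in the phagosome. Cybb, its catalytic subunit gp91phox (chrX:9012378-9064897, NCBIM37), had 148 copies (24.7 TPM) and 226 copies (38.7 TPM), a ratio of 1.56 (1.27 to 1.94, FDR 0.000116). Ncf1, the organiser p47phox, had 121 and 171 copies, a ratio of 1.45 (1.14 to 1.84, FDR 0.00672), just under 1.5-fold. Of the partners outside the markers, Cyba, the membrane partner p22phox, rose from 112 to 212 copies (1.94-fold). Ncf4, a cytosolic partner, had 61 and 77 copies, a ratio of 1.29 (0.912 to 1.84). These 2 partners summed to a ratio of 1.71 (1.41 to 2.08), and 1 of them passed the test.

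Mrc1, the mannose receptor of tissue macrophages (chr2:14151041-14253684, NCBIM37), had 163 copies (27.2 TPM) and 241 copies (41.2 TPM), a ratio of 1.51 (1.24 to 1.86, FDR 0.000206). It lay just past 1.5-fold, and it was not called when the libraries were scaled by TMM. Emr1, which encodes the F4/80 antigen of mouse macrophages, lay just short of it, with 70 and 102 copies and a ratio of 1.49 (1.09 to 2.05, FDR 0.0299). Csf1r, the receptor for the growth factor that maintains macrophages, had 186 and 181 copies, a ratio of 0.997 (0.808 to 1.23). Its interval excludes a 1.5-fold difference in either direction. Aif1, the macrophage protein Iba1, had 146 and 152 copies, a ratio of 1.07 (0.844 to 1.35).

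The Fc receptor chains and DAP12 among the macrophage markers had ratios below 1. Tyrobp, the adaptor DAP12, had 211 copies (35.2 TPM) in Dox+ and 158 copies (27.0 TPM) in Dox-, a ratio of 0.767 (0.620 to 0.947, FDR 0.0296). Fcer1g, the common gamma chain of Fc receptors, had 177 and 134 copies, a ratio of 0.775 (0.615 to 0.976, FDR 0.0596). Fcgr3, a low-affinity Fc receptor, had 183 and 154 copies, a ratio of 0.862 (0.691 to 1.07). None of these 3 reached 1.5-fold. Fc receptor genes outside the markers went the other way. By the rule of at least 20 copies, Fcgr1 rose from 66 to 103 copies (1.60-fold, 1.16 to 2.21). By the same rule Fcgr2b rose from 63 to 105 copies (1.71-fold, 1.24 to 2.37). Fcgr4 had 13 and 26 copies, a ratio of 2.05 (1.02 to 4.34), and was not called. The intervals of Tyrobp and Fcer1g do not overlap that of Mrc1. These adaptors are also used by natural killer cells, and Fcer1g also by mast cells, whose genes are given further on, and the part of those cells in these values was not tested.

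Kinases that act with immune receptors had 202 and 249 summed copies over 3 genes, a ratio of 1.26 (1.04 to 1.53), and 0 of the 2 with at least 20 copies passed the test. Lyn, a Src family kinase, had 184 and 229 copies, Fgr had 16 in each library, and Btk, a kinase of B cells and myeloid cells, had 2 and 4. Syk, also listed, stands under its older symbol Sykb and is not in this sum. It had 35 and 39 copies, a ratio of 1.14 (0.704 to 1.86).

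The remaining macrophage markers were rare. Cd14, the co-receptor for bacterial lipopolysaccharide, had 30 and 31 copies, a ratio of 1.06 (0.620 to 1.81). Cd163, the scavenger receptor for haemoglobin, had 18 and 8 copies, a ratio of 0.455 (0.171 to 1.10, FDR 0.119). Cd68, a lysosomal glycoprotein usually abundant in macrophages, had 5 and 8 copies, far fewer than Aif1 or Emr1 in either library.

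Levels of different markers were compared per kilobase of transcript (TPM per kb). On that scale Lyz1 stood first, at 234 in Dox+ and 368 in Dox-, followed by Tyrobp at 62.5 and 47.9 and Fcer1g at 43.9 and 34.0. Emr1 stood at 3.60 and 5.38, and Csf1r at 6.61 and 6.59. If each gene yields about 1 counted tag per transcript, as DGE tag profiling intends, TPM without length is the fitting scale. On it Lyz1 was again first, at 296 TPM and 465 TPM.

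Among 19 further macrophage genes, 14 had a ratio above 1 and 3 below 1, and the summed copies were 2891 and 3352, a ratio of 1.19 (1.13 to 1.25). Of the 8 with at least 200 copies 2 rose, and of the 17 with at least 20 copies 8 rose and 0 fell. The complement gene C1qb was the most abundant, with 755 and 804 copies, a ratio of 1.09 (0.986 to 1.21). Mpeg1, a pore-forming protein of macrophages, had 472 and 601 copies, a ratio of 1.30 (1.15 to 1.47). Ctss, the cathepsin that processes antigen, rose from 313 to 459 copies, a ratio of 1.502 (1.30 to 1.74). It lay just past 1.5-fold, and it was not called when the libraries were scaled by TMM. C1qc rose from 92 to 142 copies (1.58-fold). Those with ratios below 1 were C1qa, the partner chain of C1qb and C1qc, with 396 and 336 copies (0.869, 0.749 to 1.01), Ly86 with 212 and 153 copies (0.739, 0.596 to 0.914, FDR 0.0125) and Ms4a7 with 197 and 159 copies (0.827, 0.667 to 1.02). Itgam, the CD11b integrin, rose from 45 to 97 copies, and Ccr2, the chemokine receptor of blood monocytes, from 34 to 71 copies.

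PU.1 is encoded by Spi1, whose gene identifier stands in the table under the older symbol Sfpi1. Under that symbol it had 22 copies (3.68 TPM) in Dox+ and 57 copies (9.75 TPM) in Dox-, a ratio of 2.65 (1.60 to 4.56, FDR 0.000294). Its partners did not share one direction. Cebpb, a factor of inflammatory and stromal cells alike, rose from 258 to 692 copies (2.75-fold, 2.38 to 3.18). Cebpa had 255 and 189 copies and Irf8 had 221 and 205. Runx1 rose from 20 to 74 copies (3.79-fold, 2.29 to 6.56), and Ikzf1 had 32 and 19 copies. Of the 5 partners 2 rose by the rule of at least 20 copies, and 3 had a ratio below 1.

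Lymphoid markers were scarce in both libraries, with 96 and 125 copies over the 10 T cell, cytotoxic and B cell markers together (ratio 1.33, 1.01 to 1.76). None of the 10 reached 200 combined copies, and of the 3 that reached 20 copies, 0 were called. Their groups had different directions, and most intervals were wide.

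The 4 T cell markers summed to 30 copies in Dox+ and 60 in Dox-, a ratio of 2.05 (1.30 to 3.29). Cd3e and Cd3g encode chains of the CD3 complex that signals from the T cell receptor. Cd3e had 8 and 19 copies, a ratio of 2.43 (1.02 to 6.42, FDR 0.0942). Cd3g had 22 and 34 copies, a ratio of 1.58 (0.899 to 2.84). Cd4, the co-receptor of helper T cells, had 0 copies in Dox+ and 4 in Dox-, which is at least 1.37-fold higher against a floor of 3 copies. Cd8a, the co-receptor of cytotoxic T cells, had 0 and 3 copies, and no ratio was taken. The co-receptors that define helper and cytotoxic T cells were thus at or near 0 in both libraries.

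Of 13 further T cell genes in the table, 7 had a ratio above 1 and 3 below 1, and the sums were 275 and 383 copies (ratio 1.43, 1.22 to 1.67). Lat, the scaffold below the T cell receptor, which mast cells also use, rose from 103 to 160 copies (1.59-fold). Lck, the kinase of the same receptor, had 114 and 155 copies, a ratio of 1.39 (1.09 to 1.79). Zap70 had 19 and 24 copies. Cd247, the zeta chain, rose from 2 to 20 copies, a ratio of 10.2 with an interval of 2.49 to 90.4. In the other direction, Cd2, an adhesion receptor of T and natural killer cells, had 13 copies in Dox+ and 0 in Dox-, at least 4.23-fold lower, with too few copies for a call. Cd3d, another CD3 chain, had 8 and 6 copies, a ratio of 0.768 (0.220 to 2.52), so the CD3 chains did not share one direction.

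Cytotoxic markers were lower in sum, without reaching the limits of counting error, at 59 and 42 copies (ratio 0.729, 0.479 to 1.10), and this direction rests on Il2rb, without which the log2 ratio of the sum was 0.035. Il2rb, the receptor chain for interleukins 2 and 15 on natural killer cells, had 43 and 26 copies, a ratio of 0.619 (0.365 to 1.03, FDR 0.107). Gzma, a granzyme, had 11 and 7 copies, and Nkg7, a granule membrane protein, had 5 and 7. Prf1, the pore-forming perforin, had 0 and 2 copies.

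Further natural killer and cytotoxic genes pointed the same way with more copies. Of 9 in the table, 7 had a ratio below 1 and 1 above 1, and their sum, 172 and 75 copies, was 2.24-fold lower in Dox- (1.70 to 2.98). Of the 4 with at least 20 copies, 3 fell. Ncr1, the natural killer receptor NKp46, fell from 37 to 18 copies (2.01-fold, 1.11 to 3.74, FDR 0.0342). Gzmc, a granzyme, fell from 35 to 17 copies (2.01-fold, 1.10 to 3.83), and Gzmb fell from 32 to 8 copies (3.91-fold, 1.76 to 9.81). Klrk1, the receptor NKG2D, had 32 and 19 copies, a ratio of 0.608 (0.326 to 1.11).

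B cell markers had 7 copies in Dox+ and 23 in Dox-. Cd79a and Cd79b encode the signalling chains of the B cell receptor. Cd79a had 4 and 11 copies, a ratio of 2.82 (0.835 to 12.1). Cd79b had 3 and 12 copies, a ratio of 4.10 (1.11 to 22.6, FDR 0.0697). Both lie below the number of copies needed for a call.

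Further B cell genes went the other way in sum, at 421 and 257 copies (ratio 0.625, 0.533 to 0.732), and Igj, the joining chain of secreted antibodies, made up nearly all of it. Igj fell from 416 to 237 copies (1.71-fold, 1.46 to 2.02), and it is made by antibody-secreting cells. Blk, a kinase of B cells, had 0 and 11 copies, at least 3.76-fold higher in Dox- against the floor, and Pou2af1 had 3 and 4.

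Mast cell markers held the largest difference among all markers. Cpa3, the carboxypeptidase stored in mast cell granules (chr3:20115516-20142080, NCBIM37), fell from 66 copies (11.0 TPM) in Dox+ to 9 copies (1.54 TPM) in Dox-, 7.16-fold (3.55 to 16.3, FDR 9.34e-11). Kit, the receptor for stem cell factor, on which mast cells depend, had 22 and 20 copies, a ratio of 0.931 (0.482 to 1.79). The interval of Kit lies wholly above that of Cpa3, so the markers of this group differed from each other. Kit is also made by other cells, among them pacemaker and germ cells.

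Most of the 6 further mast cell genes in the table fell with Cpa3. Their sum was 267 copies in Dox+ and 35 in Dox-, 7.45-fold lower (5.22 to 10.9), and of the 5 with at least 20 copies 4 fell. Cma1, a chymase, fell from 98 to 8 copies (12.0-fold, 5.84 to 28.5). Tpsb2, a tryptase, fell from 95 to 5 copies (18.6-fold, 7.68 to 58.4), and its neighbour Tpsab1 fell from 30 to 2 copies (14.6-fold, 3.72 to 126). The tryptase transcripts share 27 stretches of 21 bases, 2.54% of those in Tpsb2. Mcpt4, another chymase, fell from 28 copies to 0, at least 9.11-fold.

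Taken as one sum, these 5 granule proteases had 317 copies (53.0 TPM) in Dox+ and 24 copies (4.11 TPM) in Dox-, 12.9-fold lower (8.51 to 20.4). The list also holds receptors, which were sparse. Fcer1a, the alpha chain of the IgE receptor, had 9 and 2 copies, a ratio of 0.228 (0.0239 to 1.10). Il1rl1, the receptor for interleukin 33, had 7 and 18 copies, a ratio of 2.63 (1.05 to 7.46, FDR 0.0807). Both are too low for a firm direction.

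**Figure D3:**
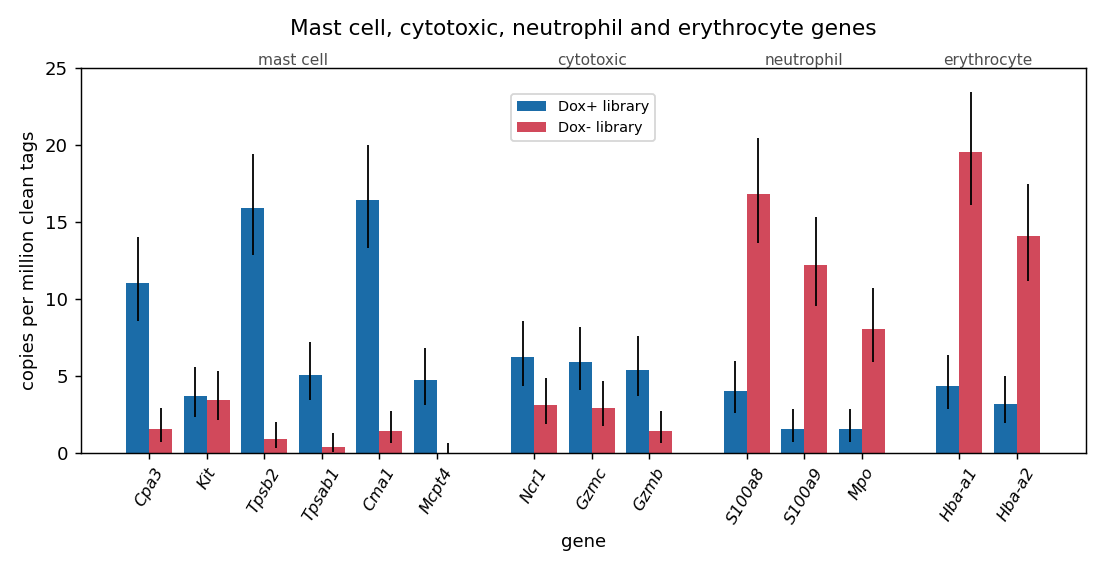
Level in TPM (y axis) in Dox+ and Dox- of mast cell genes, natural killer genes, neutrophil genes and alpha globins (x axis), as bars from 0 with exact Poisson 95% intervals for counting error. The mast cell proteases fall to near 0 in Dox- while the intervals of Kit overlap, and S100a8, S100a9, Mpo and the globins are higher in Dox-. The genes are a selection from their lists, some of them chosen after their values were seen. Not drawn, among others, are Mmp8 (81 and 83 copies), Alas2 (21 and 9), Klrk1 (32 and 19) and Il1rl1 (7 and 18).

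Other blood cells were read from lists outside the markers. Neutrophil genes had 155 and 352 copies over 8 genes, a ratio of 2.33 (1.92 to 2.83), and of the 5 with at least 20 copies 3 rose and 0 fell. S100a8 rose from 24 to 98 copies and its partner S100a9 from 9 to 71 copies, and the pair summed to a ratio of 5.25 (3.60 to 7.87). Mpo, the peroxidase of neutrophil granules, rose from 9 to 47 copies. Mmp8, a collagenase of neutrophils, had 81 and 83 copies, and Mmp9 had 27 and 42. Csf3r had 2 and 9 copies, Cxcr2 3 and 0, and Fpr1 0 and 2. The listed neutrophil genes Ly6g, Retnlg, Ngp, Camp and Elane had no row. Neutrophils also carry Ptprc, Laptm5, Cybb, Ncf1, Cyba and Itgam, and their part in those values was not tested.

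Eosinophil genes had 240 and 494 copies over 4 genes, a ratio of 2.11 (1.80 to 2.47). Alox15, a lipoxygenase that is not made by eosinophils alone, rose from 233 to 453 copies and made up most of the sum. The ratio of the sum is therefore mostly that of this gene, and which cells made it was not tested. Ccr3, the eotaxin receptor, rose from 2 to 24 copies, a ratio of 12.3 (3.05 to 107). Siglec5, listed with the eosinophil genes as the table's name for Siglecf, had 0 and 11 copies. Prg2 had 5 and 6 copies, a ratio of 1.23 (0.313 to 5.09). The listed eosinophil genes Epx, Prg3, Ear1, Ear2 and Il5ra had no row. Dendritic cell genes had 94 and 121 copies, a ratio of 1.32 (0.999 to 1.75), and of the 5 with at least 20 copies 1 rose, Cd209a, from 12 to 27 copies. Itgax had 30 and 36 copies, and Batf3 had 21 and 11.

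Ligands of leukocyte receptors had 806 and 726 copies, a ratio of 0.923 (0.833 to 1.02), and their members split. Ccl11, the eotaxin that acts on Ccr3, rose from 45 to 235 copies (5.35-fold, 3.87 to 7.53). Cxcl12, which attracts cells with Cxcr4, fell from 441 to 210 copies, and Csf1, the ligand of Csf1r, fell from 118 to 72 copies (1.60-fold, 1.18 to 2.18). Kitl, the ligand of Kit, had 68 and 46 copies, and Il15, which acts through Il2rb, had 79 and 91.

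**Figure D4:**
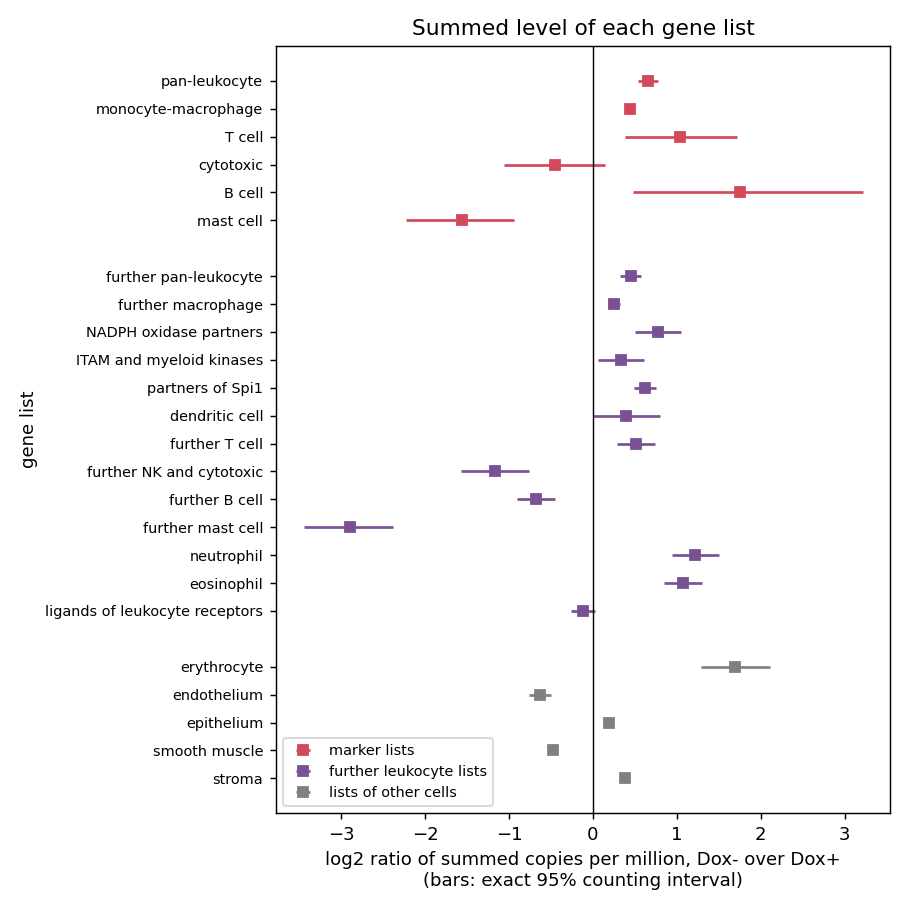
Log2 ratio of the summed level in Dox- over that in Dox+ for each list of genes (y axis), with exact 95% counting intervals. Mast cell lists lie at the left, and B cell, neutrophil, T cell and eosinophil lists at the right. The eosinophil list is mostly Alox15. Further B cell genes, mostly Igj, lie left of 0.

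Genes of cells that come with blood or surround the leukocytes differed too. Hba-a1 and Hba-a2, the alpha globins of red cells, summed to 45 copies in Dox+ and 196 in Dox-, a ratio of 4.46 (3.21 to 6.31), and the 4 erythrocyte genes in the table summed to a ratio of 3.23 (2.44 to 4.33), although Alas2, the first enzyme of haem synthesis in red cells, had 21 and 9 copies. The globin transcripts share 73.2% of the stretches of 21 bases in Hba-a1, so their values are not separate. Hbb-b2, a beta globin, had 0 and 3 copies, and Hbb-b1 had no row, so the erythrocyte genes did not share one direction. Alpha globin copies were higher in Dox-, as were the neutrophil, T cell and pan-leukocyte sums. The part of blood left in the uteri in those values was not tested. In the other direction, endothelium genes had a ratio of 0.646 (0.590 to 0.708) and smooth muscle genes one of 0.718 (0.708 to 0.728). All 7 smooth muscle genes had ratios below 1, among them Tagln (11417 and 8854 copies), Myl9 (9564 and 7452) and Actg2 (7436 and 5086), and Des and Cnn1 fell by the rule of at least 200 copies. Stroma genes had a ratio of 1.31 (1.29 to 1.32) in sum, but 4 of the 8 lay above 1 and 4 below. The collagens Col1a1 (23017 and 33696 copies) and Col3a1 (18514 and 17098) carried most of the sum, Col1a2 rose 2.06-fold and Lum rose 1.84-fold, and Vim fell 1.52-fold. Epithelium genes had a ratio of 1.14 (1.10 to 1.18) in sum, again over members that went both ways. Krt7 rose 3.43-fold and Epcam rose 1.80-fold, Cldn3 fell 2.93-fold and Cldn4 fell 2.24-fold, and Krt19 (1554 and 2046 copies) and Krt8 (1330 and 1481) were not called. The part of these other cells in the leukocyte values was not tested.

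Of the 8 endothelium genes, 6 had a ratio below 1 and 2 above 1. Cdh5 fell from 446 to 216 copies and Tie1 from 191 to 100. The 2 above 1 were Kdr, with 10 and 17 copies, and Pecam1, which leukocytes and platelets also make, with 243 and 253. The part of leukocytes in the value of Pecam1 was not tested.

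Length was looked at as a property the choice of markers did not use. Over the 14 markers with at least 200 copies, the Spearman correlation of the log2 ratio with transcript length was 0.52, and over the 25 with at least 20 copies it was 0.25. Over 6460 genes of the table it was 0.08, and the median log2 ratio went from -0.03 in the 1615 shortest genes to 0.08 in the 1613 longest. The points share the same pair of libraries. Of the 14, the shortest were Tyrobp (564 bases) and Fcer1g (674 bases), both with ratios below 1, and the longest was Mrc1 (5352 bases), which rose. Others did not follow this order, since Lyz1 (1264 bases) rose and Csf1r (4701 bases) had a ratio of 0.997. When the median of each decile of length was subtracted, Mrc1 and Cybb moved from just above 1.5-fold to just below it, at 1.44-fold each, and Laptm5, Rac2 and Lyz1 stood at 1.99-, 1.78- and 1.63-fold.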

How the data were processed

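Total RNA of 3 uteri per condition was pooled and 1 library per condition was sequenced. The authors removed adaptor-only, low quality and single tags and assigned the remaining clean tags to mouse reference transcripts. The deposited counts are the copies per gene in each library, not normalized. The deposited TPM values are copies scaled to 1000000 clean tags with no correction for length, and the authors wrote 0.01 for genes at 0 copies. The processing notes of the submitters name CASAVA and mm9. The labels describe RNA fragmentation and the methods describe DGE tag profiling, which was not resolved, and sense and antisense tags were both searched by the authors, and whether the copies hold sense tags alone was not resolved. Clean tag totals were recovered from copies and TPM, as the whole numbers that give every TPM value. Ratios, log2 ratios, P-values and FDR of the authors' own comparison were not used.

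The two-sided Audic-Claverie test was run on the copies of all genes, with Benjamini-Hochberg adjustment over all genes. A gene was called at an FDR below 0.05, a fold change of at least 1.5 and 200 or more copies over both libraries, and separately at 20 or more. For calls, copies of 3 or fewer were set to 3. Against 0 copies a fold change is printed as a bound from 3 copies, and at 1 to 3 copies the ratio of the copies as counted is printed with its interval. A list was summed over its members and given no test. The markers, the 6 marker lists and the 18 other lists were chosen with earlier results of these data known. The text names all markers, the 3 members of each other list with the most copies, those called at 200 copies or more, and Vegfa. Other genes named, such as Mcpt4, Gzmb, Mpo, Ccr2, Cd247, Cd2, C1qa, Sfpi1 and Fcer1a, were chosen after their values were seen. Some genes of the other lists are not reported here and are left out of the sums. Gene positions and lengths are from the GENCODE annotation of NCBIM37, and start regions from RefSeq on GRCm38.p6. Alternatives were other filters and thresholds, other scalings, Fisher's exact test, a pseudocount, and edgeR's exact test at several assumed values of the coefficient of variation. The Audic-Claverie test and the intervals were checked on simulated counts that held counting error alone. Spread between uteri was not simulated, so this check does not cover it. The software was edgeR 4.0.16 in R 4.3.3, and Python 3.11.15 together with pandas 2.3.3, scipy 1.17.1, numpy 2.4.6 and, for plots, matplotlib 3.10.9.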

Additional observations from a re-analysis of the deposited data

How the results depend on the processing

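With 1 library per condition no spread between uteri was measured. No paired analysis was possible because there is 1 library per condition. 5 markers were called higher at 200 copies. At a fold change of at least 2 this was 1 (Laptm5), and with the exact test of edgeR at an assumed coefficient of variation of 0.1 it was 3 (Laptm5, Rac2 and Lyz1), and 0 at 0.2 and 0 at 0.4. It was also 3 after subtracting the median of each length decile, an alternative chosen after seeing the data. The other filters, scalings and tests gave 4 to 7. 0 markers were called lower at 200 copies, and 1, Cpa3, at 20 copies and also 1 without a filter. Of the 8 markers called at 20 copies, 6 were called at an assumed variation of 0.1, 2 (Ptprc and Cpa3) at 0.2 and 0 at 0.4. Mrc1 was not called under TMM (log2 ratio 0.57) or median-of-ratios scaling (0.56), and Csf1r changed sign, to 0.034, when scaled to summed copies. These scalings moved all log2 ratios by -0.02, -0.03 and 0.04. On the log2 scale, the pan-leukocyte sum without its most abundant gene Laptm5 was 0.51 and the macrophage sum without Lyz1 was 0.16, or 0.14 without both lysozymes. The T cell sum without Cd3g was 1.73, the cytotoxic sum without Il2rb was 0.035, against -0.46 with it, and the mast cell sum without Cpa3 was -0.10. Outside the markers, Ncr1 and Gzmc were not called with the exact test of edgeR at an assumed variation of 0.1. Gzmb was called at 0.1 and not at 0.2. Genes under about 20 copies allow no firm direction.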
